A study of Mus musculus with 8 samples.

Results

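Among the complete heavy-chain CDR3 sequences assembled from pro-B cell RNA, 572 of 3882 were carried by 5 or more reads, and these larger clonotypes are described here. The CDR3 is the junction at which a V, a D and a J segment are joined. A clonotype is 1 distinct CDR3 nucleotide sequence of 1 sample whose protein sequence starts with cysteine and ends with tryptophan. Its reads are those taken to span the CDR3, computed from the deposited expression score. The members were chosen by their read number alone, so their number, size and share of reads are given as a description with no test. The 1398 clonotypes of 1 read from the same samples served as the comparison, and the 1912 clonotypes of 2 to 4 reads lay in between.

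The RNA came from bone marrow pro-B cells of mice aged 8 weeks. Cells with B220 and Cd43 on their surface, and without IgM or CD25, had been sorted. There were 4 control samples and 4 samples with a knockout of Setd2, which encodes a methyltransferase of histone H3, all untreated and of 1 sequencing batch. Poly-A RNA was read with single-end reads of 75 bases. The labels name neither the animal behind a replicate number nor the allele or Cre line behind the knockout, so the p-values cover only the spread among the samples, part of which may be technical.

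Heavy-chain genes are put together from V, D and J segments at the pro-B stage, and bases are trimmed and added at both joints. Each CDR3 therefore marks the descendants of 1 rearranged cell, except for short junctions that can arise more than once. The constant gene behind the J segment is IGHM in early B cells, and is replaced by IGHG, IGHA or IGHE after class switching in mature B cells and plasma cells. Reads of a clonotype combine the number of its cells and the RNA in each cell, and in these bulk samples the 2 cannot be told apart.

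The J segment supplies the end of every CDR3. The germline parts of the 4 JH genes that lie inside the CDR3 are shown so that the last bases of the sequences below can be compared with them. The J genes named are those the contigs listed, which the last bases do not always match. They were taken from GENCODE M21 on mm10, on the minus strand of chromosome 12, from IGHJ1 at chr12:113429781-113429833, IGHJ2 at chr12:113429468-113429515, IGHJ3 at chr12:113429085-113429132 and IGHJ4 at chr12:113428514-113428567.
IGHJ1: ctactggtacttcgatgtctgg
IGHJ2: actactttgactactgg
IGHJ3: cctggtttgcttactgg
IGHJ4: attactatgctatggactactgg

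The clonotype with most reads of each sample follows, as assembled by the authors, because these sequences set the upper end of the size range. Capitals mark the longest exact match of at least 8 bases to a germline D segment, where there was one. Controls 1 and 4 had 2 sequences tied for the first place, and the one with more contig reads is shown.
control 1, 20 reads, IGHJ2: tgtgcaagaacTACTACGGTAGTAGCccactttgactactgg
control 2, 30 reads, IGHJ2: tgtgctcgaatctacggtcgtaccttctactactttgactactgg
control 3, 16 reads, IGHJ2: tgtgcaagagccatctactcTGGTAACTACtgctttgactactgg
control 4, 14 reads, IGHJ3: tgtgcaaggagagagtttgcttactgg
knockout 1, 36 reads, IGHJ2: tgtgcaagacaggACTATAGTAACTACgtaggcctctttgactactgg
knockout 2, 26 reads, IGHJ2: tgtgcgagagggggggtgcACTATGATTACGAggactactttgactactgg
knockout 3, 9 reads, IGHJ1: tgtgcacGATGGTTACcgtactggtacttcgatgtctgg
knockout 4, 203 reads, IGHJ3: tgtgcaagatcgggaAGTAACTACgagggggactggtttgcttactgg

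The capitals in control 1 belong to IGHD1-1, those in control 3 to IGHD2-8, those in knockouts 1 and 4 to IGHD2-5 or IGHD2-6, which have the same sequence, those in knockout 2 to IGHD2-4 and those in knockout 3 to IGHD2-3. The largest clonotypes of controls 2 and 4 had no D match of 8 bases. The contig of the control 2 sequence listed IGHV8-8 (chr12:115294066-115294362), that of control 3 IGHV1S22, and that of knockout 2 IGHV9-4 (chr12:114299961-114300254). Those of controls 1 and 4 and knockout 3 listed several genes of IGHV1, that of knockout 1 several of IGHV5, and that of knockout 4 none.

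Controls 1 to 4 held 92, 124, 75 and 120 larger clonotypes, and knockouts 1 to 4 held 53, 51, 3 and 54. Every control had more of them than every knockout. The controls also had more CDR3-spanning reads, 1633 to 2324 against 120 to 1227. Per 1000 such reads, controls 1 to 4 held 45.3, 53.4, 45.9 and 57.1 larger clonotypes. Knockouts 1 to 4 held 63.3, 61.7, 25.0 and 44.0 on that scale, so the groups overlapped. As a share of all complete clonotypes of the sample they were 10.8%, 15.1%, 11.3% and 15.0% in controls and 27.3%, 20.6%, 4.11% and 23.9% in knockouts. Here the order turned over, with 3 of 4 knockouts above every control and knockout 3 below them all. Knockout 3 had the fewest reads, 120 that spanned a CDR3 and 12102 on the heavy-chain locus. The other samples had 826 to 2324 reads across a CDR3 and 41368 to 100600 on the locus.

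The larger clonotypes held 30.7%, 39.4%, 30.5% and 39.2% of the CDR3-spanning reads in controls 1 to 4. In knockouts 1 to 4 they held 66.9% (95% Wilson interval 63.65 to 70.01), 54.8% (51.4 to 58.2), 18.3% (12.4 to 26.2) and 71.8% (69.2 to 74.2). These intervals cover counting error only, since reads without molecular identifiers are not independent molecules. Knockouts 1, 2 and 4 lay above the controls and knockout 3 below them. The median larger clonotype had 6 reads in each control and 8, 7, 8 and 9 reads in knockouts 1 to 4. Just outside the limit, at 4 reads, there were 55, 80, 43 and 57 clonotypes in controls and 18, 14, 1 and 23 in knockouts. Just inside it, at 5 reads, there were 38, 42, 30 and 45 in controls and 10, 14, 1 and 10 in knockouts.

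Controls 1 to 4 held 10, 20, 5 and 16 clonotypes of 10 or more reads, and knockouts 1 to 4 held 19, 15, 0 and 21. They came to 51 over the controls and 55 over the knockouts, although the controls had 3141 clonotypes and the knockouts 741. In knockout 4 the 21 clonotypes of this size held 652 of 1227 reads, and in control 2, the highest control, the 20 of this size held 272 of 2324 reads. The largest clonotype of knockout 4, with 203 reads, was also found with 1 read in control 4. Its second clonotype had 92 reads, or 7.50% of the sample (95% Wilson interval 6.15 to 9.11).

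**Figure D1:**
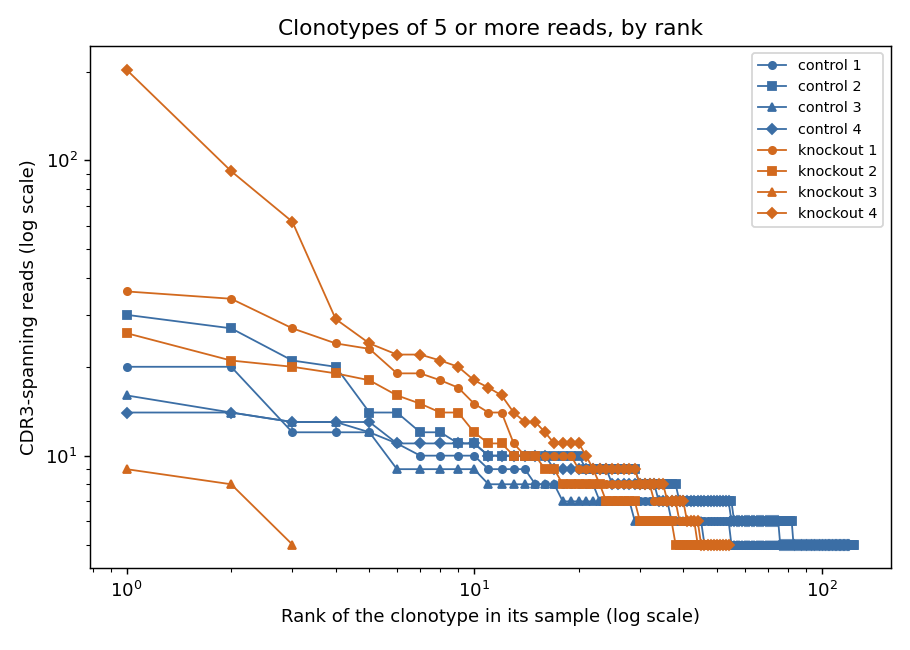
CDR3-spanning reads of each larger clonotype (log scale) against its rank in the sample (log scale), with 1 line per sample, controls in blue and knockouts in orange. The lines of knockouts 1, 2 and 4 fall more steeply than those of the controls, from 36, 26 and 203 reads to 5 reads within 51 to 54 clonotypes, and knockout 3 has 3 points.

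The V segment of the larger clonotypes was compared first. VH families are ordered along the locus, with IGHV2 and IGHV5 nearest to the D and J segments (proximal), IGHV1 and IGHV8 farthest (distal) and the smaller families between them (intermediate). A V family was used where all V genes a contig listed belonged to it, which held for 505 of 572 larger clonotypes and 967 of 1398 single-read clonotypes. IGHV1 was the family of 328 of the 505, followed by IGHV5 with 48, IGHV2 with 28, and IGHV9 and IGHV14 with 25 each. IGHV10 had 13, IGHV3 and IGHV6 12 each, IGHV7 7, IGHV8 5, and IGHV4 and IGHV13 1 each.

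Distal families made up 77.4%, 65.7%, 60.3% and 65.0% of the larger clonotypes in controls 1 to 4 and 79.1%, 73.3%, 79.7% and 81.5% of the single-read clonotypes. In knockouts 1 to 4 they made up 58.5%, 60.4%, 66.7% and 70.2% of the larger and 65.8%, 82.8%, 76.7% and 71.7% of the single-read clonotypes. The share was lower among the larger clonotypes in 8 of 8 samples, with differences from -22.3 to -1.49 percentage points. The mean fell from 76.3% ± 5.72 to 65.5% ± 6.18 (SD, n = 8), a difference of -10.8 points (two-sided exact sign-flip permutation over samples, p = 0.00781, Benjamini-Hochberg adjusted p = 0.0339 over 13 readouts). This p is the smallest that 8 samples can give.

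Intermediate families were higher among the larger clonotypes in 8 of 8 samples. They went from 11.5%, 16.7%, 10.8% and 12.5% of single-read to 13.1%, 19.2%, 27.9% and 17.5% of larger clonotypes in controls 1 to 4. In knockouts 1 to 4 they went from 15.8%, 8.62%, 6.67% and 13.2% to 18.9%, 20.8%, 33.3% and 17.0%. The mean difference was 9.0 points, from 11.97% ± 3.37 to 21.0% ± 6.53 (SD, n = 8, exact sign-flip permutation p = 0.00781, adjusted p = 0.0339). The value of knockout 3 is 1 of 3 clonotypes, and without that sample the difference was 6.48 points (exact permutation p = 0.0156, adjusted p = 0.0508). Proximal families averaged 13.5% ± 6.88 of larger and 11.7% ± 4.41 of single-read clonotypes, a difference of 1.79 points that did not pass (SD, n = 8, exact sign-flip permutation p = 0.586, adjusted p = 0.692), and that was 0.414 points without control 4 and 4.43 without knockout 3.

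**Figure D2:**
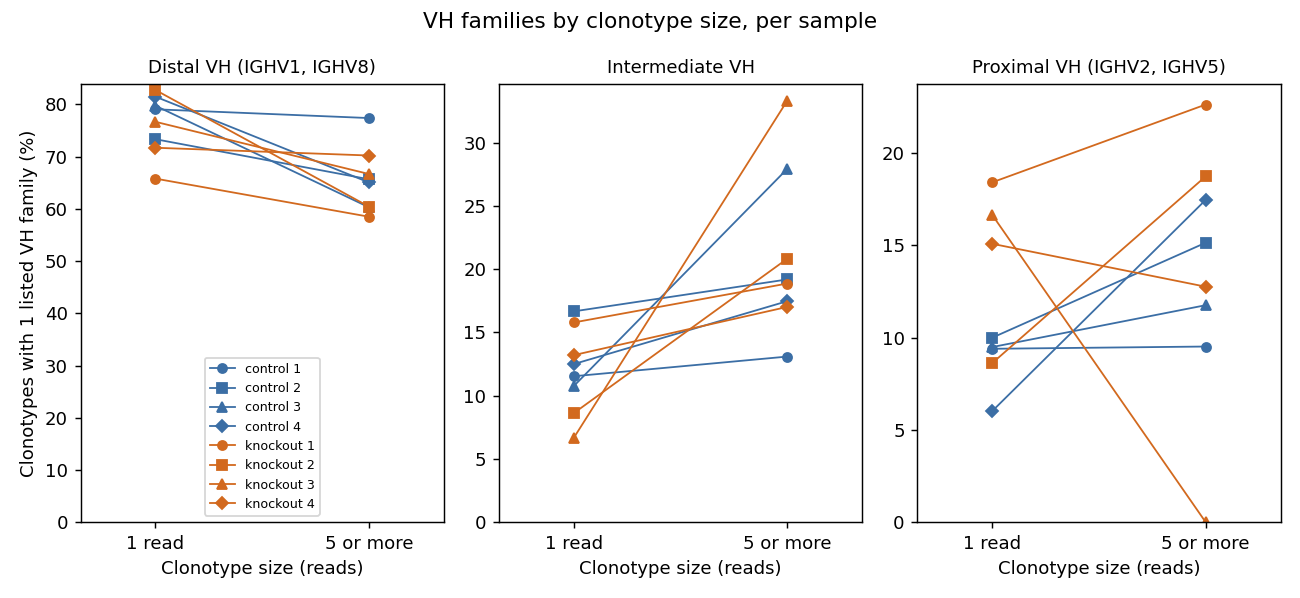
Share of clonotypes with distal, intermediate or proximal VH families (vertical axis, percent of clonotypes with 1 listed family) among clonotypes of 1 read and of 5 or more reads (horizontal axis), with 1 line per sample, controls in blue and knockouts in orange. All 8 lines fall in the distal panel and all 8 rise in the intermediate panel, and the steepest intermediate line is that of knockout 3, which rests on 3 larger clonotypes.

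The assembly itself differed between the size classes. The median contig was 129 bases for larger clonotypes and 75 bases, the length of a read, for single-read clonotypes. V genes of several families were listed for 8.57% of larger and 23.3% of single-read clonotypes. The part of this in the V family shares was not tested. Against clonotypes of 2 to 4 reads, whose contigs had a median of 101 bases, the distal share of larger clonotypes differed by -2.37 points (exact sign-flip permutation p = 0.516, adjusted p = 0.609) and the intermediate share by 6.03 points (p = 0.00781 by exact sign-flip permutation, adjusted p = 0.102), and neither passed. That comparison was added after seeing the data.

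A single V gene was listed for 114 larger clonotypes. IGHV1-81 (chr12:115920279-115920572) was listed for 14 of them in 6 samples, IGHV1-18 (chr12:114682632-114682925) for 11 in 4 samples, IGHV1-75 (chr12:115833950-115834243) for 10 in 5 samples, IGHV5-17 (chr12:113859149-113859442) for 8 in 5 samples and IGHV1-9 (chr12:114583569-114583862) for 7 in 5 samples. These 5 were picked as the most frequent, after their counts were seen. V genes are near-identical copies of each other, so the gene within a family is uncertain where reads end short of the differing bases.

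The J segment was listed for 547 of 572 larger clonotypes. IGHJ2 was listed for 252, IGHJ4 for 127, IGHJ3 for 101 and IGHJ1 for 67. IGHJ2 accounted for 38.0%, 60.5%, 50% and 44.6% of larger clonotypes in controls 1 to 4 and for 30.8%, 41.7%, 0% and 47.1% in knockouts 1 to 4. The groups overlapped, and the 0% of knockout 3 is 0 of 3 clonotypes, for which the exact one-sided 95% upper limit is 63.2%. The means were 48.3% ± 9.49 and 29.9% ± 21.0 (SD, n = 4 each), and the difference of -18.4 points did not pass (two-sided exact permutation over 70 arrangements, p = 0.171, adjusted p = 0.446). Without knockout 3 it was -8.47 points.

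IGHJ1 accounted for 13.04%, 3.36%, 10% and 14.3% of larger clonotypes in controls and for 13.5%, 20.8%, 66.7% and 17.6% in knockouts. Knockout 1 lay below control 4 and the other 3 knockouts above every control. The difference of 19.5 points between the means did not pass (exact permutation p = 0.0571, adjusted p = 0.371). It was 7.14 points without knockout 3, where the value is 2 of 3 clonotypes (exact permutation p = 0.114, adjusted p = 0.619). Against single-read clonotypes no JH gene passed: the mean differences were 8.57 points for IGHJ1, -2.56 for IGHJ2, -2.67 for IGHJ3 and -3.34 for IGHJ4 (exact sign-flip permutation adjusted p = 0.451 to 0.727). With 1 sample left out they ran from 1.46 to 11.1, -6.81 to 0.645, -5.12 to 1.71 and -5.35 to -0.919 points in that order, and the values of 1.46, 0.645 and 1.71 were those without knockout 3. A JH gene was missing from 41.1% of single-read and 4.37% of larger clonotypes.

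**Figure D3:**
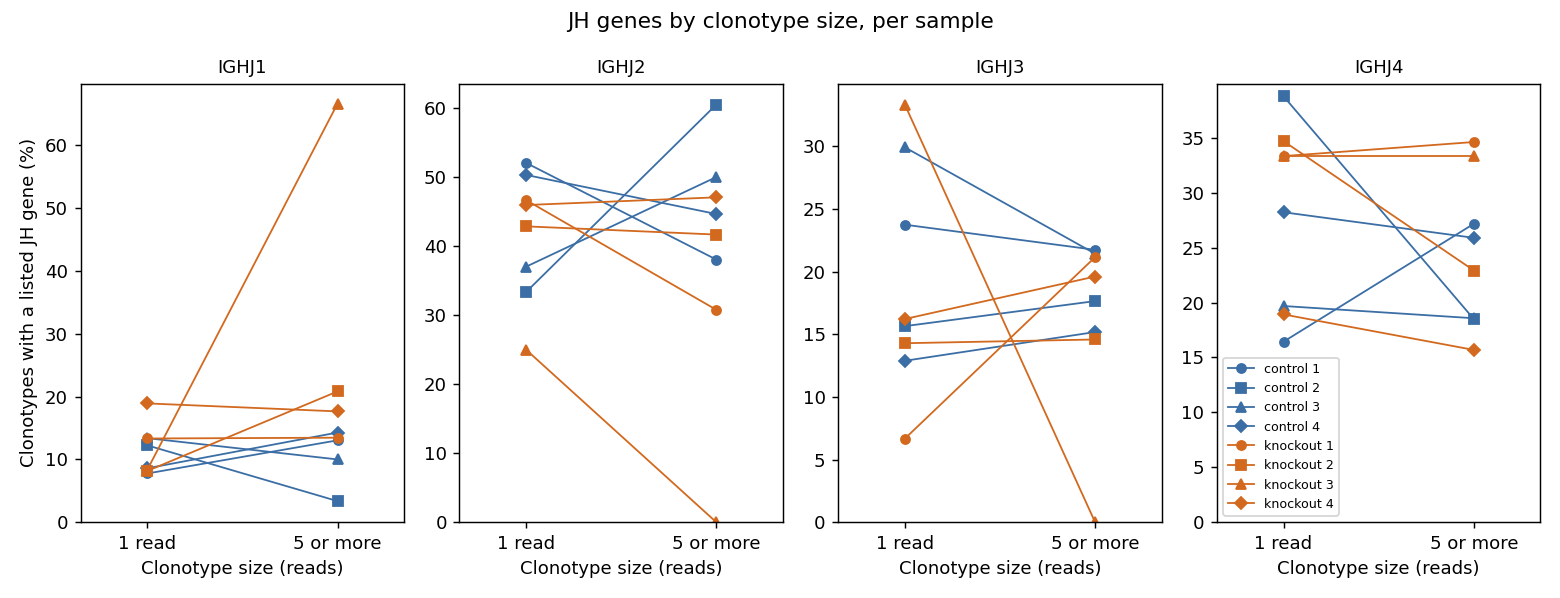
Share of each JH gene (vertical axis, percent of clonotypes with a listed JH gene, scaled per panel) among clonotypes of 1 read and of 5 or more reads (horizontal axis), with 1 line per sample, controls in blue and knockouts in orange. Lines run in both directions in every panel, and knockout 3, with 3 larger clonotypes, goes from 8.33% to 66.7% for IGHJ1 and to 0% for IGHJ2 and IGHJ3.

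Among clonotypes of 10 or more reads, IGHJ2 was listed for 34 of 51 over the controls (66.7%) and for 23 of 55 over the knockouts (41.8%). By sample it was listed for 5 of 10, 17 of 20, 5 of 5 and 7 of 16 in controls 1 to 4, and for 5 of 19, 8 of 15 and 10 of 21 in knockouts 1, 2 and 4. The shares of the 2 groups overlapped, and this difference was not tested.

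D segments were recognised in 351 larger clonotypes. IGHD2 segments were matched in 176, IGHD1 in 126, IGHD4 in 31 and IGHD3 in 18. IGHD2 made up 37.0%, 48.5%, 52.2% and 64.4% of the matched larger clonotypes in controls 1 to 4, while knockouts 1 to 4 had 43.9%, 43.3%, 100% and 50%. Its mean was 54.9% ± 19.9 of larger and 45.3% ± 4.30 of single-read clonotypes (SD, n = 8), and the difference of 9.63 points did not pass (exact sign-flip permutation p = 0.242, adjusted p = 0.404 over 5 added readouts). Without knockout 3, where 3 of 3 clonotypes matched IGHD2, the difference was 3.58 points.

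The CDR3 of larger clonotypes was longer. Its mean length in amino acids was 13.8, 13.8, 13.5 and 14.1 in controls 1 to 4 against 13.1, 13.02, 12.6 and 13.2 for single-read clonotypes. In knockouts 1 to 4 it was 14.6, 13.8, 15.0 and 15.3 against 13.4, 13.2, 13.3 and 12.9. The larger clonotypes were longer in 8 of 8 samples, and the mean rose from 13.1 ± 0.255 to 14.2 ± 0.660 amino acids (SD, n = 8), a difference of 1.16 (exact sign-flip permutation p = 0.00781, adjusted p = 0.0339). The gain was 0.780 to 0.924 amino acids across the controls and 0.521 to 2.42 across the knockouts. Single-read clonotypes had contigs with a median of 75 bases, the length of a read, which limits the CDR3 they can hold. Their longest CDR3 had 20 amino acids. The part of this limit in the length difference was not tested. Knockouts exceeded controls among larger clonotypes by 0.875 amino acids, from 13.8 ± 0.222 to 14.7 ± 0.675 (SD, n = 4 each), which did not pass (exact permutation p = 0.114, adjusted p = 0.446).

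Part of the length in knockout 4 came from 3 sequences of 102 bases, which exceed the 75-base read. Each had IGHV5, IGHJ1 and a computed 11 reads, which cannot be reads that span it. The 3 ended in the same 33 bases and shared all bases from their first IGHJ1 end onward. They are shown because each held the end of the IGHJ1 germline sequence 2 times, and a further cysteine codon between them. With 2 JH ends they do not read as 1 junction of a V, a D and a J segment. They were kept as members in the length, IGHJ1 and IGHV5 values, and how they arose was not tested.
knockout 4, long sequence 1: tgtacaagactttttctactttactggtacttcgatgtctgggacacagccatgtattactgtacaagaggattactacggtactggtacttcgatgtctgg
knockout 4, long sequence 2: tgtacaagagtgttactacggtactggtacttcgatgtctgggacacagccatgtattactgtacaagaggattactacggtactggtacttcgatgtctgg
knockout 4, long sequence 3: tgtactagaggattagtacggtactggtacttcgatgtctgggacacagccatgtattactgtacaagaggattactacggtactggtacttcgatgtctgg

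Control 4 had the only other larger clonotype beyond the length of a read, of 102 bases and 7 reads with IGHJ3. It also held a further cysteine codon. Without such sequences the mean length of larger clonotypes was 14.2 amino acids in knockout 4 and 13.9 in control 4. The difference from single-read clonotypes was then 0.998 amino acids (exact sign-flip permutation p = 0.00781, adjusted p = 0.0508), and it no longer passed after adjustment. Its unadjusted p was the same as with these sequences, the smallest that 8 samples can give. The adjusted p also depends on the other readouts, so its rise is not a change in the length test itself.

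Tyrosine, a residue common in D and JH segments and in antigen-binding loops, made up more of the CDR3 in larger clonotypes. Its mean share in controls 1 to 4 was 15.4%, 17.1%, 17.9% and 17.2%, and that in knockouts 1 to 4 was 18.2%, 18.0%, 23.6% and 18.3%. Single-read clonotypes had 16.1%, 16.2%, 13.4% and 15.2% in controls and 16.4%, 15.3%, 16.3% and 14.6% in knockouts. The mean rose by 2.76 points, from 15.4% ± 1.06 to 18.2% ± 2.36 (SD, n = 8), and was higher in 7 of 8 samples, control 1 being the exception (exact sign-flip permutation p = 0.0156, adjusted p = 0.0406). Among larger clonotypes every knockout was above every control, but the difference of 2.62 points did not pass after adjustment (exact permutation p = 0.0286, the smallest that 4 against 4 samples can give, adjusted p = 0.371). Without knockout 3, with its 3 clonotypes, it was 1.28 points. The share of G and C among CDR3 bases was 47.9% ± 0.270 in larger and 48.4% ± 0.772 in single-read clonotypes (SD, n = 8, exact sign-flip permutation p = 0.164, adjusted p = 0.305).

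A constant gene was assigned to 264 larger clonotypes, and IGHA, the constant gene of class-switched IgA at chr12:113256204-113260236, was assigned to 253 of them. IGHG was assigned to the other 11, and IGHM (chr12:113418826-113422730), IGHD and IGHE to 0. Taken as independent draws, 0 of 264 allows a listed share of up to 1.14%. That limit covers only the genes the contigs listed, not the constant genes of the RNA. IGHM nevertheless made up 41.4% to 48.02% of the reads on heavy constant segments in controls and 55.4% to 92.7% in knockouts, while the contigs listed it for 1 of 3882 clonotypes. IGHA made up 17.1% to 33.3% of those segment reads in controls and 4.02% to 34.1% in knockouts, and IGHG 20.8% to 35.5% and 2.66% to 14.9%. Light-chain constant IGKC, which marks later stages, had 40603 to 56600 reads in controls and 2810 to 62691 in knockouts. None of these markers of other B-lineage cells was at 0 in any sample, with IGHD at 63 to 348 reads, light-chain constant IGLC at 867 to 3511 and IGHE at 1 to 25. Their part in the results was not tested.

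A constant gene was assigned to 41.3%, 62.9%, 56.0% and 31.7% of larger clonotypes in controls 1 to 4, against 1.76%, 0.758%, 2.19% and 1.68% of single-read clonotypes. In knockouts 1 to 4 the shares were 35.8%, 35.3%, 0% and 57.4% against 0%, 3.66%, 0% and 2.94%. The mean rose by 38.4 points, from 1.62% ± 1.32 to 40.1% ± 19.98 (SD, n = 8), and was higher in 7 of 8 samples, with knockout 3 at 0 in both classes (exact sign-flip permutation p = 0.0156, adjusted p = 0.0406). A contig has to reach past the J segment to show a constant gene. Single-read clonotypes had a median contig of 75 bases, the length of a read, and 23 of 1398 had a constant gene assigned. Size class and contig length differed together, so this test cannot tell them apart. The part of contig length was not tested. Against clonotypes of 2 to 4 reads, the differences of 19.3 points for the constant gene, 0.584 amino acids for length and 1.72 points for tyrosine did not pass (exact sign-flip permutation adjusted p = 0.102, 0.163 and 0.163). With any 1 of the 8 samples left out, the differences in distal and intermediate VH families, length, tyrosine and constant gene kept their direction. None of the 5 passed (exact sign-flip permutation adjusted p = 0.0508 to 0.0813). Since 7 samples allow no exact p below 0.0156, these lost calls do not show the weight of any 1 sample. Between the groups the difference of -15.8 points among larger clonotypes did not pass (exact permutation p = 0.286, adjusted p = 0.619). It was -5.12 points without knockout 3 and -24.3 without knockout 4.

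**Figure D4:**
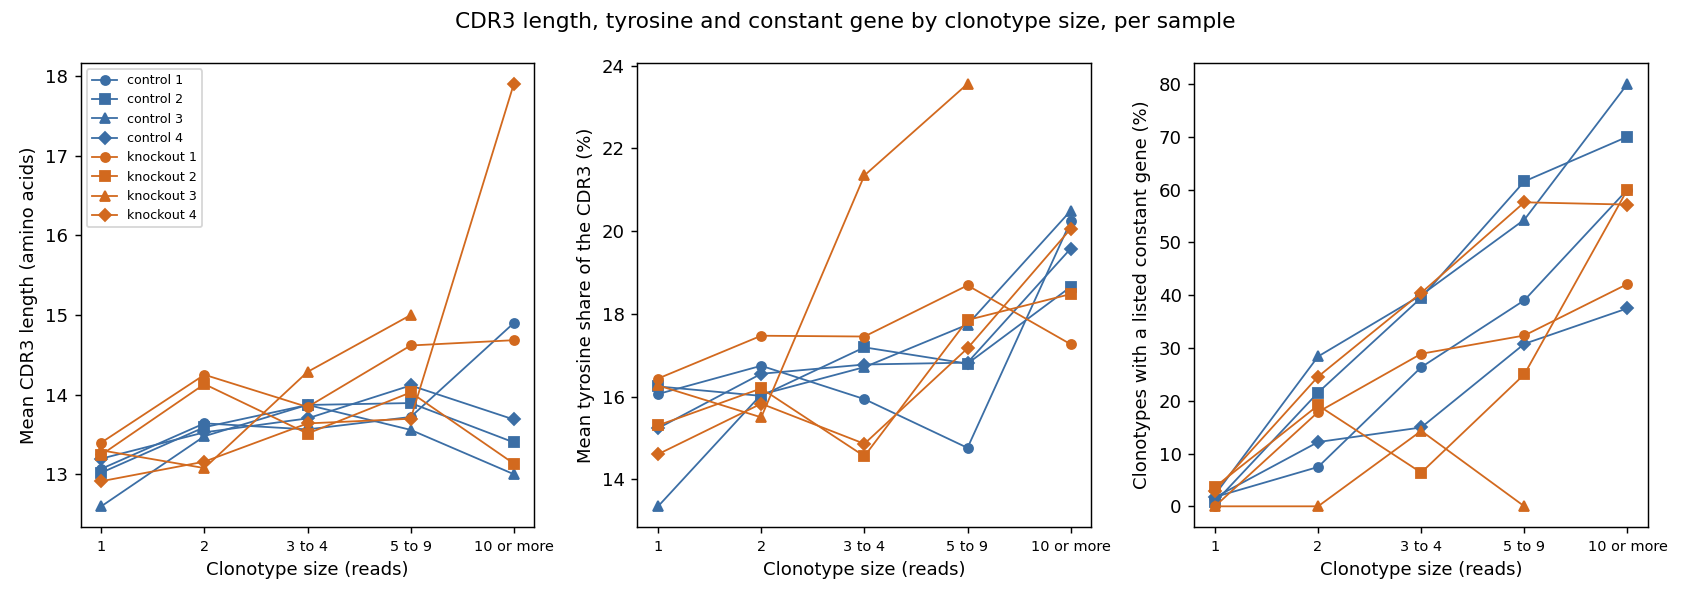
Mean CDR3 length, mean tyrosine share of the CDR3 and share of clonotypes with a listed constant gene (vertical axes) in 5 classes of reads per clonotype (horizontal axis), with 1 line per sample, controls in blue and knockouts in orange. The share with a constant gene rises from at most 3.66% at 1 read to between 37.5% and 80.0% at 10 or more reads, and the point of knockout 4 at 17.9 amino acids includes the 3 sequences longer than a read.

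The larger clonotypes with IGHA were compared with those of no assigned constant gene in the 7 samples that had both. A mismatch to the germline JH gene in the 20 bases behind the CDR3, a place where somatic hypermutation can leave traces, was found in 23.1% ± 11.9 of the former and 13.6% ± 7.76 of the latter (SD, n = 7). The difference of 9.49 points did not pass (exact sign-flip permutation p = 0.172, adjusted p = 0.391 over 6 readouts), and it was 4.98 points without control 3. IGHA clonotypes had a mean length of 13.8 ± 0.705 amino acids and those without a constant gene 14.4 ± 1.06 (SD, n = 7, exact sign-flip permutation p = 0.266, adjusted p = 0.391). Leaving out knockout 2 brought this length difference from -0.590 to -0.334. None of the 6 readouts passed, and 0 had an unadjusted exact permutation p under 0.05.

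Over all larger clonotypes with enough sequence behind the CDR3, such a JH mismatch was found in 18.4%, 27.0%, 32.3% and 16.8% in controls 1 to 4. In knockouts 1 to 4 it was found in 6.25%, 17.1%, 0% and 15.9%, the 0% resting on 2 clonotypes. Knockout 2 lay above control 4, and the other knockouts below every control. The means of 23.6% ± 7.30 and 9.81% ± 8.14 (SD, n = 4 each) differed by -13.8 points, which did not pass (exact permutation p = 0.0571, adjusted p = 0.286 over 5 added readouts). Single-read clonotypes had means of 20.4% ± 4.20 in controls and 8.71% ± 10.1 in knockouts (SD, n = 4 each). The gap was thus not particular to larger clonotypes. The source of these mismatches was not tested.

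Larger clonotypes of the same sample were often near-copies of each other. Of 25814 pairs within a sample, 51 had equal length and differed by 2 or fewer bases, a rate of 19.8 per 10000 pairs. Of 137492 pairs between samples 10 did, a rate of 0.727 per 10000. These pairs formed 40 groups with 88 clonotypes, 33 of them groups of 2, and 27 groups held a clonotype with IGHA. Over all larger clonotypes IGHA was assigned to 253 of 572, and a group has at least 2 chances to hold one. A link between near-copies and IGHA was not tested. Clonotypes with such a relative made up 10.9%, 15.3%, 17.3% and 10% of the larger clonotypes in controls 1 to 4, while knockouts 1 to 4 had 11.3%, 17.6%, 0% and 35.2%. Knockout 4 stood highest, and 62.2% of the reads of its larger clonotypes lay in such groups, against 9.71% to 18.5% in the controls.

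**Figure D5:**
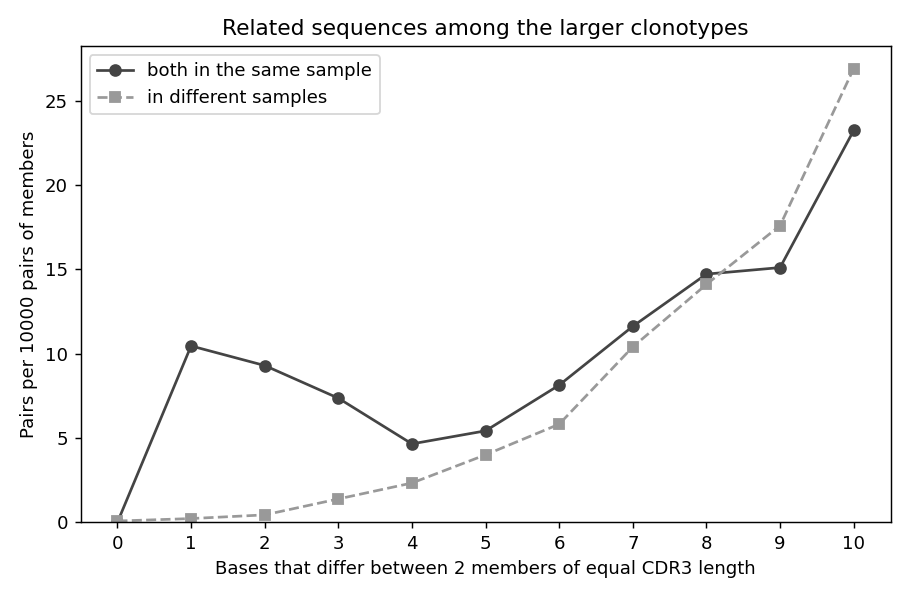
Pairs of larger clonotypes of equal CDR3 length per 10000 pairs (vertical axis) by the number of bases that differ (horizontal axis), for pairs within a sample (circles) and between samples (squares). Within samples the rate is 10.5 at 1 base, 9.30 at 2 bases and 4.65 at 4 bases, and between samples it rises from 0.218 at 1 base.

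The 4 groups of related sequences with most reads, and the group of the largest clonotype of control 1, are shown because the changed bases, in capitals, can be read against the larger sequence of the group. Positions are counted from 1 at the 5′ end of the CDR3, and protein positions from its first amino acid.
knockout 4, first group, 203 reads: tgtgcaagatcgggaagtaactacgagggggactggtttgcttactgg
knockout 4, first group, A15G, 62 reads: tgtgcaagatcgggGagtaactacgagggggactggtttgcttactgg
knockout 4, first group, G4C, 29 reads: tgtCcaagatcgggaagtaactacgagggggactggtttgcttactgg
knockout 4, second group, 92 reads: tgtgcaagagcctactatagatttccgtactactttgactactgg
knockout 4, second group, A17T, 16 reads: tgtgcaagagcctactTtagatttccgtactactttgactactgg
knockout 1, 36 reads: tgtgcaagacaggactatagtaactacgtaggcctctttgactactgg
knockout 1, A14G and C15G, 9 reads: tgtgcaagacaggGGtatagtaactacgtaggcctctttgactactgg
control 2, 21 reads: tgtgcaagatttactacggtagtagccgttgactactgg
control 2, T12C, 20 reads: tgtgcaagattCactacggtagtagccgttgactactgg
control 2, C14T, 6 reads: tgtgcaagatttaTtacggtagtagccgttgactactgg
control 1, 20 reads: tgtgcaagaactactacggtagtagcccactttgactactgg
control 1, C14T, 9 reads: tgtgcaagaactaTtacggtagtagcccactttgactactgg

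In the first group of knockout 4 the change A15G left the protein sequence as it was, and G4C changed it by A2P. All 3 members carried IGHA and IGHJ3, and both variants listed IGHV1-81 as their single V gene. The second group of that sample differed by A17T, which gave Y6F, and the variant of knockout 1 gave D5G. In control 2 the change T12C was silent and left 20 against 21 reads, while C14T gave T5I. The contigs listed IGHJ4 for the sequences of 21 and 20 reads and IGHJ2 for that of 6 reads, although all 3 end in the same bases. The JH shares above rest on such listed genes. The group of control 1, with C14T and T5I, had IGHA in both sequences.

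Over all 40 groups, 48 sequences were set against the largest of their group. They differed by 1 base in 27 cases, and 17 of those 27 changed the protein sequence. In all, the protein sequence differed in 36 and was the same in 12. Related sequences of fewer than 5 reads were counted as well: a complete CDR3 of any size 1 base away in the same sample was found for 20.7%, 38.7%, 40% and 24.2% of larger clonotypes in controls 1 to 4 and for 9.43%, 27.5%, 0% and 31.5% in knockouts 1 to 4. The mean was 24.0% ± 13.8 against 14.7% ± 7.19 of single-read clonotypes (SD, n = 8), and the difference of 9.25 points did not pass after adjustment (exact sign-flip permutation p = 0.0313, adjusted p = 0.0677). A sample with more clonotypes offers more possible neighbours, and controls had 665 to 855 clonotypes against 73 to 248 in knockouts. The part of this in the values by sample was not tested. Which of these sequences are separate rearrangements was not tested.

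Sharing between samples was rare. Of the larger clonotypes 15, with 14 distinct sequences, were also found in another sample, or 2.62%, against 2.07% of single-read clonotypes. The shared ones were short, with a mean of 10.9 amino acids against 14.1 for the others, and 10 of the 15 used IGHJ2. The 1 sequence that was a larger clonotype in 2 samples is shown with 1 of the 2 shortest ones and with 2 of the 3 shared by a control and knockout 3, because they show what was held in common. The other of these 3 is the largest clonotype of knockout 3, given above.
controls 2 and 4, 7 and 5 reads, control 1, 2 reads: tgtgcaagggactttgactactgg
control 4, 7 reads, control 2, 1 read: tgtaccaggtttgactcctgg
control 3, 8 reads, knockout 3, 1 read: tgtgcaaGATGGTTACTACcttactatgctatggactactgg
control 3, 7 reads, knockout 3, 1 read: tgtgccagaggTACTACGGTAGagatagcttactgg

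The first of these is joined with no recognisable D segment and has 8 amino acids. The second also lacks a D match and has 7. The last pair, of 14 and 12 amino acids, carries D matches of 12 and 11 bases, shown in capitals, to IGHD2-3 and IGHD1-1. The largest clonotype of knockout 3, with 9 reads, and that of knockout 4, with 203 reads, were each found with 1 read in control 4. Whether such pairs are separate rearrangements was not tested.

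Between controls and knockouts none of the 13 readouts of the larger clonotypes passed the adjusted threshold of 0.05, and tyrosine was the 1 with an unadjusted exact permutation p under 0.05. Distal families differed by -3.15 points (exact permutation p = 0.543), proximal by 0.0604 points (p = 1 by exact permutation) and intermediate by 3.09 points (exact permutation p = 0.571), each with an adjusted p of 0.675 to 1. For the change from single-read to larger clonotypes, the difference between the groups was 1.03 points for distal families (exact permutation p = 0.857), 0.631 amino acids for length (exact permutation p = 0.171) and -15.9 points for assigned constant genes (exact permutation p = 0.286). With 1 sample left out these ran from -1.90 to 5.05 points, from 0.314 to 0.948 amino acids and from -23.9 to -5.72 points, the lowest values without knockout 4 in each case. None of the 13 passed, and 0 had an unadjusted exact permutation p under 0.05.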

How the data were processed

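RNA from 8 sorted pro-B cell samples, 4 control and 4 Setd2 knockout by the labelled genetic alteration, was analysed. Reads were aligned with STAR 2.5.1 to mm10, per the submitters' processing notes, and receptor sequences were assembled with TRUST, per the series design text. The version of TRUST is not given in the sources used. The deposited contig tables give a read count per contig and an expression score per clonotype, and the deposited coverage tables give a read count per gene segment, neither of them normalized by the authors, per the file headers. The score times the CDR3 length in bases, set to 48 where shorter, was a whole number for 100% of contigs within 0.01, and this product is the number of CDR3-spanning reads. No complete CDR3 was listed by several contigs of a sample, so no reads had to be summed.

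Depth was 120 to 2324 such reads per sample, so shares of few clonotypes are coarse, and total library depth was not used. Each sample gave 1 value per readout. Larger and single-read clonotypes were compared within samples by a two-sided exact sign-flip permutation test (256 arrangements), and group means by exact two-sided permutation (70 arrangements). Benjamini-Hochberg adjustment ran over 13 readouts per comparison, and separately over 5 added readouts, with a threshold of 0.05. The tests were tested on simulated data with known answers. D segments were taken as the longest exact match of at least 8 bases, and JH mismatches over the 20 bases behind the CDR3 and VH mismatches over the 30 before it, against GENCODE M21. Python 3.11.15, numpy 2.4.6, pandas 2.3.3, scipy 1.17.1 and matplotlib 3.10.9 were used.

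The members, lists and tests were chosen with earlier results of these data known. Named clonotypes were the 2 largest of each sample, every member found in another sample and every near-copy among the 2 largest, and those shown were picked from these and from the groups of related sequences after their values were seen. Alternatives were limits of 3 and 10 reads, contig reads, other small classes, merged sequences, weights by reads, samples with at least 10 members, each replicate left out and the replicate number as a block; 3 more, and those of the near-copy rates, were added after seeing the data. The replicate numbers come from the labels. Deviations of the VH segment shares from the group means, over 98 segments, correlated between same-numbered control and knockout samples at 0.231, 0.211, 0.148 and 0.183. The numbers were therefore taken to pair the samples in the block alternative, while the other tests between the groups did not use this pairing. The V genes and lengths of light chains were not used here, and Setd2 transcript levels were not analysed here.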

Additional observations from a re-analysis of the deposited data

Results flagged for a closer look

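Values that stood apart from the other 3 samples of their group, with a gap to the nearest sample above Dixon's 95% critical value for 4 samples, were looked for in 48 groups of values, and chance flags about 1 in 20 such groups. Knockout 3 stood apart for its number of larger clonotypes, 3 against 51 to 54 in the other knockouts. With those 3 clonotypes it also stood apart for the share of IGHJ1, at 66.7%, for the share of IGHD2, at 100%, and for tyrosine, at 23.6% of the CDR3. Knockout 4 stood apart for its largest clonotype of 203 reads. Control 1 stood apart for the share of IGHA among larger clonotypes with a constant gene, at 78.9% of 38, the other 8 carrying IGHG. The other controls were at 97.4% to 100%, and control 1 also had the highest share of IGHG in the constant segment reads, 35.5%.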

How the results depend on the processing

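Differences between larger and single-read clonotypes are called size differences here, those between knockouts and controls among larger clonotypes group differences, and the differences of the former between the groups interactions. Values are in percentage points, or amino acids for length. Over all alternatives, 70 values that answer a comparison lost a call, 3 gained one and 57 changed sign, with 34 more sign changes among the IGHD and mismatch readouts and the comparisons of IGHA clonotypes, and each sign change belongs to a difference that had not passed. Where not stated, the cause was not tested.

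With a limit of 3 reads the size differences were 4.56 for proximal VH, which then passed (exact permutation adjusted p = 0.0254), 5.25 for intermediate VH, which did not, and 0.0744 for IGHJ2. The group differences were -0.183 for IGHJ4, 6.28 for IGHD1 and -2.87 for IGHD2, the interactions -1.25 for distal VH, 2.77 for IGHJ3, 5.94 for IGHD1 and -2.45 for IGHD2, and the IGHA difference in tyrosine was -0.987. Members then averaged 268 per control with 62.4% of reads and 76.8 per knockout. With a limit of 10 reads, which 7 samples met, no size difference passed: -20.5 for distal VH, 12.4 for intermediate VH, 1.33 for length, 56.3 for constant gene and 3.93 for tyrosine, and the sign changed to 14.0 for IGHJ2, 6.78 for VH mismatch and 0.883 for IGHD4. Group differences became 0.340 for distal VH, -9.69 for intermediate VH, 9.62 for IGHJ3, -1.14 for tyrosine, 6.53 for VH mismatch, -2.44 for IGHD2 and 5.36 for IGHD4. Interactions became 4.04 for proximal VH, -9.37 for intermediate VH, 17.8 for IGHJ3, 1.41 for IGHJ4, -1.37 for tyrosine, 1.37 for G and C, 3.34 for JH mismatch, -1.04 for IGHD2 and 6.11 for IGHD4, and the IGHA difference in intermediate VH -0.951. Members then averaged 12.8 per control with 7.70% of reads and 13.8 per knockout.

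With contig reads in place of CDR3-spanning reads the size differences were 14.5 for 1-base neighbours, which then passed, 2.65 for tyrosine, which did not, -9.78 for the IGHA share and 0.614 for VH mismatch, the group differences -0.249 for proximal VH and -0.158 for G and C, and members of controls held 47.3% of reads. With merged sequences, where 1-base neighbours have no value, size differences of 36.7 for constant gene and 2.62 for tyrosine did not pass, VH mismatch was at 2.21, the group difference of IGHD1 was 1.60 and its interaction 2.72, and members of controls held 43.5% of reads. Weighted by reads, the size differences were -12.1 for distal VH, which did not pass, 14.9 for 1-base neighbours, which did, and 0.878 for VH mismatch, the group differences 0.653 for IGHJ3 and -0.819 for IGHJ4, and the interactions 3.58 for IGHJ3, 0.288 for G and C and 5.86 for JH mismatch.

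Against clonotypes of 1 or 2 reads no size difference passed: -7.31 for distal VH, 7.82 for intermediate VH, 0.930 for length, 32.0 for constant gene and 2.36 for tyrosine. Proximal VH was at -0.505, JH mismatch at -0.107 and the interaction of IGHJ4 at 3.52. Against those of 2 to 4 reads, added after seeing the data, none passed either: -2.37, 6.03, 0.584, 19.3 and 1.72 in the same order, with -3.67 for proximal VH, -0.360 for JH mismatch and 2.95 for VH mismatch. The interactions were 10.7 for IGHJ4, 1.34 for the IGHA share and 0.342 for IGHD4. Without CDR3 longer than a read the size differences were -10.2, 9.17, 0.998, 38.9 and 2.78 and none passed, the group difference of proximal VH was -1.47 and the interaction of IGHJ4 0.00337. With JH genes read from the CDR3 end IGHJ4 was at 1.45 and its interaction at 1.87.

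With the 7 samples of at least 10 members, which leaves out knockout 3, the size differences were -10.9, 6.48, 1.08, 43.9 and 2.12 in that order and none passed, with 0.645 for IGHJ2 and 1.71 for IGHJ3. Group differences became -0.519 for intermediate VH, -0.00225 for G and C, 6.63 for IGHD1 and -4.77 for IGHD2, and interactions -0.192 for intermediate VH, 7.61 for IGHJ3, 4.53 for IGHD1 and -3.37 for IGHD2. With any 1 replicate left out, 7 samples allow no exact p below 0.0156, and none of the 5 size differences passed. They ran from -12.1 to -9.15 for distal VH, 6.48 to 10.1 for intermediate VH, 0.975 to 1.25 for length, 35.0 to 43.9 for constant gene and 2.12 to 3.26 for tyrosine, with -2.46 to 0.0135 for VH mismatch, -6.81 to 0.645 for IGHJ2 and -5.12 to 1.71 for IGHJ3. Group differences ran from -5.42 to 0.280 for distal VH, -2.97 to 4.57 for proximal VH, -0.519 to 5.93 for intermediate VH, -0.221 to 6.80 for the IGHA share, -8.29 to 6.63 for IGHD1, -4.77 to 14.1 for IGHD2, -24.2 to -8.47 for IGHJ2, -24.3 to -5.12 for constant gene, 1.28 to 3.12 for tyrosine and -0.00225 to 0.228 for G and C. Interactions ran from -1.90 to 5.05 for distal VH, -0.192 to 8.42 for intermediate VH, -8.33 to 7.61 for IGHJ3, -5.86 to 4.48 for IGHJ4, -10.2 to 4.53 for IGHD1, -3.37 to 15.99 for IGHD2 and -0.697 to 0.141 for G and C.

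With the replicate number as a block no call changed, since 4 pairs allow no exact p below 0.125, and the group difference in tyrosine was 2.62 (exact permutation p = 0.125). Near-copies within a sample came to 12.4 per 10000 pairs with a limit of 3 reads and 94.0 with 10, against 0.557 and 0 between samples. Knockout 3, with 3 members, limits every comparison of the groups by depth.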
